A study of Drosophila melanogaster with 2 samples.

Results

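CLAMP occupancy was described at 5 genes of the retinal determination network of Drosophila melanogaster: so, Optix and Six4, the fly's homeobox genes of the sine oculis family, and their partners eya and dac. The measurement was ChIP-seq, the sequencing of DNA recovered with a chromatin protein. The optimal peak set, made by the authors from both replicates, held 3077 peaks, and a peak was counted for a gene when its summit lay inside the gene or within 20 kb of either end. This gave 15 of the 3077 peaks, at 5 of 13945 annotated protein-coding genes. Beyond the authors' own selection of the optimal set, no measured value entered the choice of the peaks. The genes, however, were picked with earlier results of these data known, so all values are given as a description with no test.

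The embryos came from a transgenic line that stably makes CLAMP, the protein of Clamp (CG1832), with GFP at its C terminus. They were whole embryos of mixed sex, collected at 0 to 24 h, and chromatin sonicated to fragments of 200 to 800 bp was recovered with an antibody against GFP. There was 1 group of 2 biological replicates, numbered 4 and 2, and no second genotype, treatment or untagged line was analysed here. All cells of the embryo were mixed, and because peak lists hold no expression values, the labelled tissue could not be checked against markers. Each peak has a signal value, which is the authors' own enrichment, and a rank by that signal within its list, with rank 1 the strongest. The list of each replicate held 30000 regions, weak background regions included, and a peak was called present in a replicate when that list had a summit within 200 bp. Over the 2458 optimal peaks present in both replicates, the signal in replicate 4 was a median of 2.61 times that in replicate 2. Signals of the 2 replicates are therefore not on a like scale, and ranks are used to set one replicate beside the other. Read depth is unknown from peak lists, and sites in the same libraries are not replicates, so every interval below covers counting error only.

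The retinal determination genes form a circuit of transcription factors that commits cells to become eye. Pax factors stand at its top, so and eya act below them as a DNA-binding protein and its coactivator, and dac encodes a nuclear factor of the same circuit. In the embryo the same genes are also used outside the eye, among other places in the visual primordium, the head, the nervous system and the mesoderm. CLAMP is a zinc-finger protein that binds GA repeats and is best known from dosage compensation, the raised transcription of the male X.

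The summit sequences of 6 of the 15 peaks are shown first, so that the patterns counted below can be seen where they occur. They are all 4 peaks of eya, with and without the patterns, the strongest peak of dac and the only peak of Six4. Each is the 151 bp centred on the summit, read from the RefSeq Release 6 genome (dm6). Capitals mark GA runs of at least 6 bp, in which G and A alternate without a break on one strand or the other, and every match to GAGCGAG or GAGTGAG on either strand, which read CTCGCTC and CTCACTC on the other. These 7-letter patterns are a GA repeat whose middle A is replaced, and a match can overlap the edge of a GA run. The peaks of each gene are numbered in the direction of its transcription.
eya peak 2 (chr2L:6547032-6547182, plus strand): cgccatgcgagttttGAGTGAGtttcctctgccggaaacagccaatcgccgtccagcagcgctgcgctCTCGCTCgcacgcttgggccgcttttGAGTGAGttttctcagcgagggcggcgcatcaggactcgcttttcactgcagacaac
eya peak 4 (chr2L:6536237-6536387, plus strand): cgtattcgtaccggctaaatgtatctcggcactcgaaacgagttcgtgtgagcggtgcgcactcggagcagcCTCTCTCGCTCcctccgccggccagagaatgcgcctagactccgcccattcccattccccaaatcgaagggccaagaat
eya peak 3 (chr2L:6545308-6545458, plus strand): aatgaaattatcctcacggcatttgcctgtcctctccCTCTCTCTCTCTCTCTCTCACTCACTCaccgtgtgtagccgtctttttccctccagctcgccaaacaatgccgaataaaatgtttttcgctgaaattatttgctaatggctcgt
eya peak 1 (chr2L:6547983-6548133, plus strand): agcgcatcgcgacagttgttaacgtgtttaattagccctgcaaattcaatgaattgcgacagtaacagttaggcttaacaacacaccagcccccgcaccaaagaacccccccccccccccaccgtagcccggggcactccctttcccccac
dac peak 1 (chr2L:16486425-16486575, plus strand): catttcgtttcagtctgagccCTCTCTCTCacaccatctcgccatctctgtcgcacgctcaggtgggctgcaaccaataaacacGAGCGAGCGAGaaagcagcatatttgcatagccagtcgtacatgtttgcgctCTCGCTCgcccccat
Six4 peak 1 (chr3L:20776413-20776563, plus strand): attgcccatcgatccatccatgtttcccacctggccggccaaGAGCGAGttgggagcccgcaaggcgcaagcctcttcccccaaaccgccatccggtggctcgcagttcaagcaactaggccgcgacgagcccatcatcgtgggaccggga

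Only the summits of eya peak 3 and dac peak 1 held a GA run of 8 bp or more in these windows. The longest, 19 bp, lay at eya peak 3 and ran on into 2 overlapping matches to GAGTGAG. At dac peak 1 a 9-bp run lay on one side of the summit, and 2 overlapping matches to GAGCGAG with 1 more match lay on the other. The peak at the 5′ end of eya, peak 2, had no run of 6 bp but 3 matches. Of these, 2 sat inside a 14-base stretch, TTTTGAGTGAGTTT, that occurred 2 times on the same strand with starts 79 bp apart. The weak peak 1 of eya held neither pattern.

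All 5 genes had at least 1 peak, as did 57.5% of all protein-coding genes. The genes so, Optix and eya had 4 each, dac had 2 and Six4 had 1. At least 4 peaks were found at these 3 of the 5 genes, against 9.18% of all protein-coding genes and 16.0% of the 964 that span 10 to 20 kb, the span class of so, Optix, eya and dac. A peak within 1 kb of one of the gene's own transcription start sites (TSSs) was present at 4 of the 5 genes, Six4 being the exception, and at 10.2% of all protein-coding genes. The 5 gene windows together covered 0.27 Mb and held 55.6 peaks per Mb (exact Poisson 95% interval 31.1 to 91.7). The whole arms that carry them held 20.1 per Mb on 3L, 20.5 on 2L and 22.9 on 2R. The arm values cover all sequence, also far from genes, and are not a like background for windows around genes. The density over the windows of other genes is not given here. Of the 15 peaks, 9 lay upstream of their gene, 4 inside it and 2 beyond its 3′ end.

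**Figure D1:**
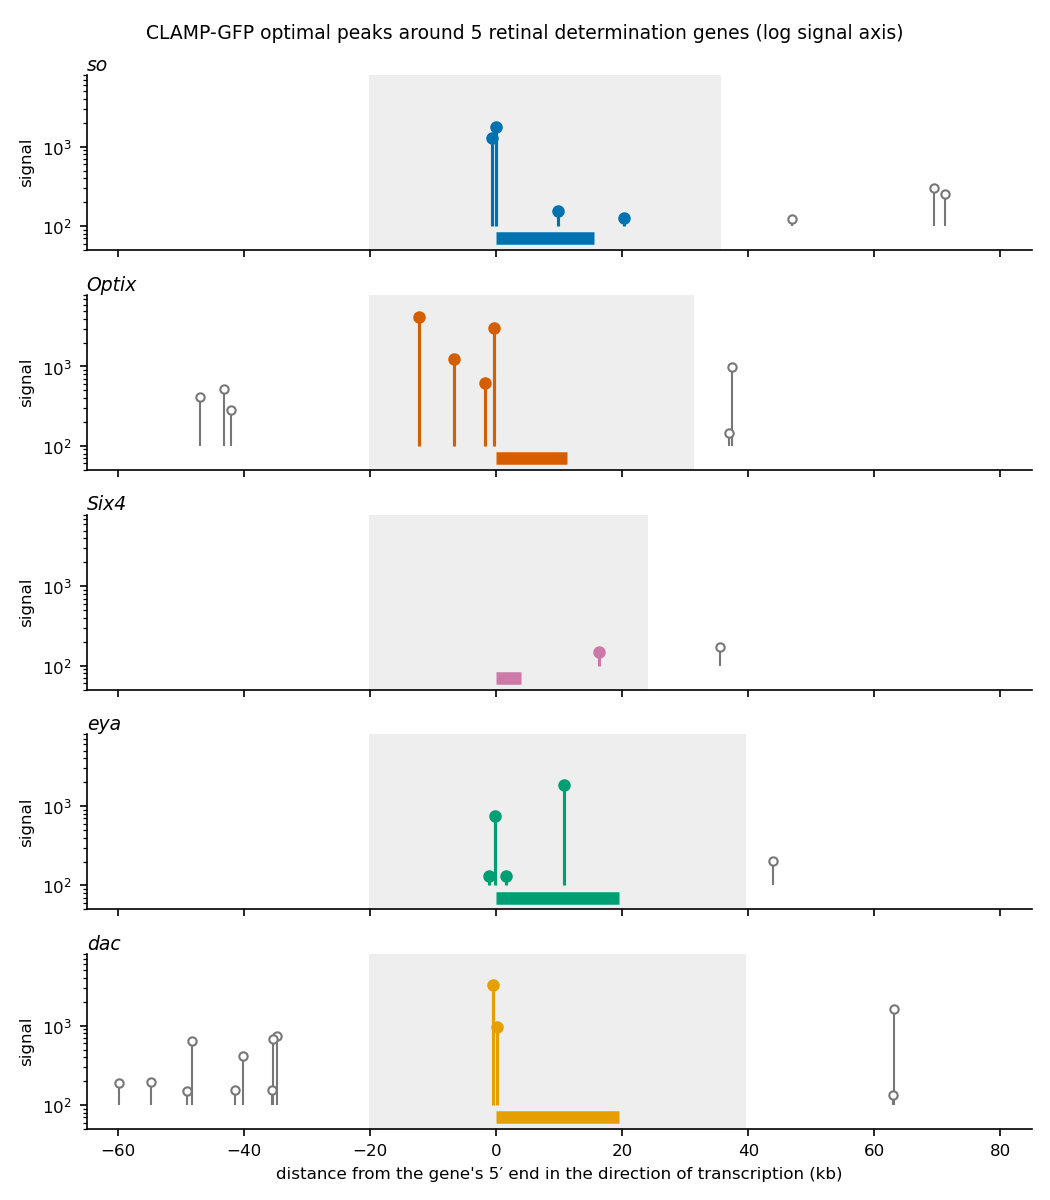
Signal of the optimal peaks (log axis) against distance in kb from the 5′ end of each gene, in its direction of transcription. Filled points are the 15 peaks, grey areas the windows of 20 kb around the genes (thick bars), and open points the peaks up to 60 kb from the gene. Strong peaks stood at or just before the 5′ end of so, Optix and dac, and the strongest peak of eya stood inside the gene.

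The gene so (sine oculis, FBgn0003460, dm6 2R:7419350-7434872, plus strand) encodes the homeodomain protein that binds DNA together with Eya. Its strongest peak (2R:7419112-7419403) had its summit 87 bp upstream of the single annotated TSS, with a signal of 1322 (rank 182) in replicate 4, 478 (rank 194) in replicate 2 and 1785 (rank 185) in the optimal set. A second peak (2R:7418544-7418847), 572 bp farther upstream, had 998 (rank 262) in replicate 4, 324 (rank 365) in replicate 2 and 1292 (rank 292) in the optimal set. Both peaks near the 5′ end of so thus ranked high in each replicate.

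The other 2 peaks of so were weak. One lay in an intron at 2R:7429007-7429416, 619 bp from a TSS of CG11145, with 107 (rank 2239) in replicate 4, 48.0 (rank 2970) in replicate 2 and 155 (rank 2390) in the optimal set. The last, at 2R:7439382-7439791 between genes and 4715 bp past the 3′ end of so, had 106 (rank 2279) in replicate 4 and 125 (rank 3014) in the optimal set. It had no counterpart in replicate 2, whose nearest region lay 1621 bp away. This last peak was nearer to the TSS of CG11123, at 1119 bp, than to that of so.

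Optix (FBgn0025360, 2R:8031283-8042529, plus strand) encodes a related homeodomain protein of another subfamily and lies 596411 bp from so on the same arm. It had the highest summed signal of the 5 genes in the optimal set, and its 4 peaks lay upstream, with none inside the gene. The peak nearest to the gene (2R:8030804-8031142), with its summit 299 bp before the TSS, had 2272 (rank 79) in replicate 4, 774 (rank 80) in replicate 2 and 3044 (rank 82) in the optimal set. The strongest of all 15 (2R:8018758-8019173) lay 12322 bp upstream of Optix, and had 3201 (rank 32) in replicate 4, 957 (rank 48) in replicate 2 and 4149 (rank 35) in the optimal set. That distal summit was 215 bp from a TSS of the noncoding RNA gene lncRNA:CR45267, so the nearest start site was not that of Optix.

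Between them lay 2 further peaks of Optix, each inside an exon of a noncoding RNA gene. The one in lncRNA:CR45267 (2R:8024367-8024726), 6727 bp upstream of Optix, had 945 (rank 285) in replicate 4, 291 (rank 422) in replicate 2 and 1245 (rank 307) in the optimal set. The one in lncRNA:CR43724 (2R:8029414-8029631), 93 bp from the TSS of that RNA and 1757 bp upstream of Optix, had 381.5 (rank 759) in replicate 4, 244 (rank 551) in replicate 2 and 626 (rank 705) in the optimal set. All 4 Optix peaks thus ranked within the first 800 regions of both replicates. Summed over the window, the optimal signal was 9063 at Optix, 4191 at dac, 3358 at so, 2879 at eya and 147 at Six4.

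Six4 (FBgn0027364, 3L:20788886-20792777, minus strand) encodes the homeodomain protein of the family known from the development of muscle and other mesodermal tissue. It had no peak inside the gene or at a TSS. The single peak of its window (3L:20776283-20776692) lay 12398 bp beyond the 3′ end, in a coding exon of Pitslre, which encodes a cyclin-dependent kinase, and its nearest TSS was that of Pex16, a peroxisome biogenesis gene, at 1776 bp. It had 122 (rank 1917) in replicate 4, 20.05 (rank 15445) in replicate 2 and 147 (rank 2523) in the optimal set. In replicate 2 this peak lay far down the list, among the background regions, and the best-ranked region of the whole Six4 window was another one, at rank 11882. A strongest peak of this signal or higher was present at 50.08% of protein-coding genes.

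The gene eya (eyes absent, FBgn0000320, 2L:6527447-6546976, minus strand) encodes the coactivator and protein phosphatase that partners So. Its strongest peak (2L:6536111-6536458, peak 4) lay in an intron, 10664 bp into the gene and 201 bp upstream of another annotated TSS of eya. This internal peak had 1460.1 (rank 155) in replicate 4, 408 (rank 259) in replicate 2 and 1859 (rank 175) in the optimal set. The peak at the 5′ end (2L:6546987-6547202, peak 2), 131 bp upstream of the first TSS, had 587 (rank 495) in replicate 4, 170.4 (rank 886) in replicate 2 and 759 (rank 571) in the optimal set. The internal peak therefore ranked above the one at the 5′ end in both replicates.

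The remaining peaks of eya were weak, and the replicates ranked them in opposite order. The intronic peak with the 19-bp GA run (2L:6545178-6545587, peak 3), 1593 bp into the gene, had 62.6 (rank 8465) in replicate 4, 64.35 (rank 2310) in replicate 2 and 131 (rank 2845) in the optimal set. The one 1082 bp upstream of the gene (2L:6547853-6548262, peak 1) had 88.0 (rank 3247) in replicate 4, 39.0 (rank 3582) in replicate 2 and 130.2 (rank 2853) in the optimal set. The 4 peaks of eya in the optimal set were therefore 2 among the 3077 strongest regions of replicate 4 alone. Replicate 2 alone also held 4 in its 3077 strongest, one of which was another region.

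The gene dac (dachshund, FBgn0005677, 2L:16466512-16485998, minus strand) encodes a nuclear factor of the Ski/Sno family that acts with Eya and So. Both of its peaks stood around its single annotated TSS, 667 bp apart. The stronger (2L:16486292-16486690, peak 1), with its summit 502 bp upstream, had 2128 (rank 89) in replicate 4, 1108 (rank 29) in replicate 2 and 3237 (rank 67) in the optimal set. The other (2L:16485671-16485972, peak 2) lay in the 5′ UTR, 165 bp downstream of the TSS, and had 762 (rank 361) in replicate 4, 205 (rank 693) in replicate 2 and 954 (rank 429) in the optimal set. Peak 1 was the only one of the 15 that ranked within the first 30 of a replicate, and it did so in replicate 2.

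Among all protein-coding genes, a strongest signal within 20 kb as high as that of Optix was present at 0.760%. The share was 1.61% for dac, 5.51% for eya and 6.01% for so. By this measure the order was Optix, dac, eya, so and Six4 in the optimal set. The genes eya and so, at 1859 and 1785, were the nearest neighbours in that order. Their order was the same in replicate 4 but the opposite in replicate 2, where the strongest peak of so ranked 194 and that of eya 259, so they did not differ beyond the spread of the replicates. Optix and dac also changed places, with Optix ahead in replicate 4 and dac ahead in replicate 2.

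**Figure D2:**
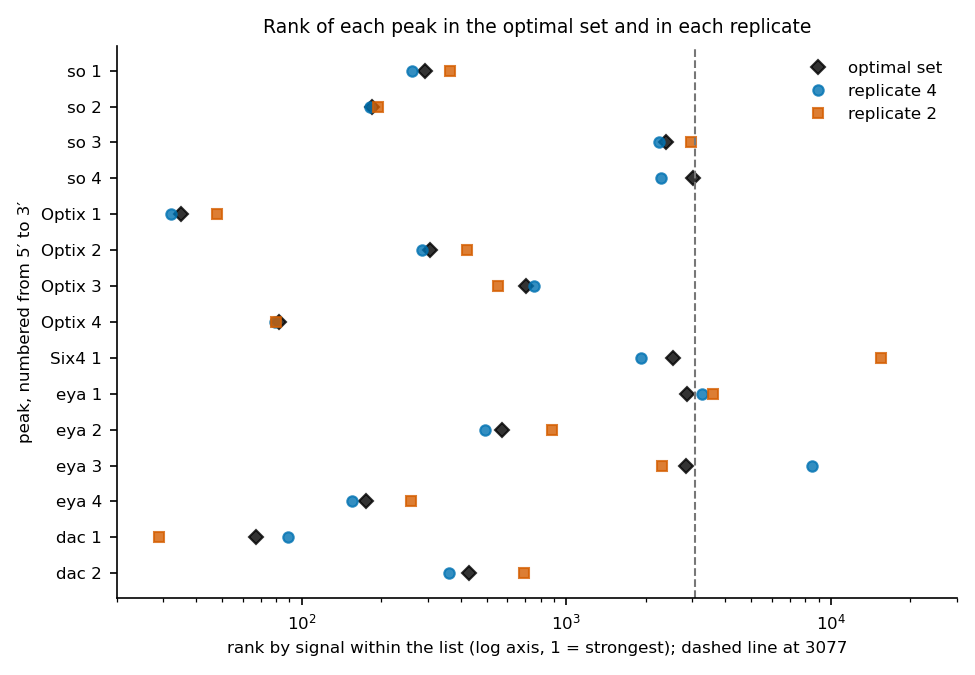
Rank by signal (log axis, 1 = strongest) of each of the 15 peaks in the optimal set (diamonds), replicate 4 (circles) and replicate 2 (squares). The dashed line marks rank 3077, the size of the optimal set. Of the 10 stronger peaks, all lie left of the line in both replicates, with dac peak 1 at 89 in replicate 4 and 29 in replicate 2. Six4 peak 1 and eya peak 3 fell beyond the line in 1 replicate each, eya peak 1 in both, and so peak 4 has no square because replicate 2 held no such region.

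A counterpart in both replicate lists was found for 14 of the 15 peaks (93.3%, exact binomial 95% interval 68.1 to 99.8%), against 79.9% of all optimal peaks. With the counterpart required among the 3077 strongest regions of both replicates, 11 of the 15 remained (73.3%, 44.9 to 92.2%), against 58.5% of all. Both intervals include the share over all peaks. The 4 peaks that dropped out were so peak 4, Six4 peak 1 and eya peaks 1 and 3, and the optimal signals of these lay between 125 and 147. All 15 regions had the same position and signal in the authors' pooled list, which holds for every optimal peak.

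The 15 peaks were 10 stronger and 5 weak ones with a gap in signal between them. Their optimal signals ran from 125 to 4149 with a median of 954, against 123 to 7591 with a median of 273 over all optimal peaks. Among the 307 strongest peaks of the set were 7 of the 15 (46.7%, exact binomial 95% interval 21.3 to 73.4%), where 9.98% of all peaks fall by definition. These were so peaks 1 and 2, Optix peaks 1, 2 and 4, eya peak 4 and dac peak 1, and Optix peak 2 stood exactly at rank 307. Between the weak peaks, at 155 or lower, and the others, at 626 or higher, no peak of the 15 lay. Over all optimal peaks this range was not empty, as their lower and upper quartiles, 162 and 567, both lay in it.

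Region width separated the same classes. The 5 weak peaks, so 3, so 4, Six4 1, eya 1 and eya 3, were all 410 bp wide, whereas the 10 stronger ones were 216 to 416 bp wide and none had that width. Regions of 410 bp made up 60.7% of all optimal peaks, with a median signal of 178, and the other optimal peaks had a median of 729. Over all optimal peaks the signals overlapped, as regions of 410 bp reached 546 and the others went down to 132. No source used here says how the authors' caller set this width, and its part in the signal of the weak peaks was not tested.

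**Figure D3:**
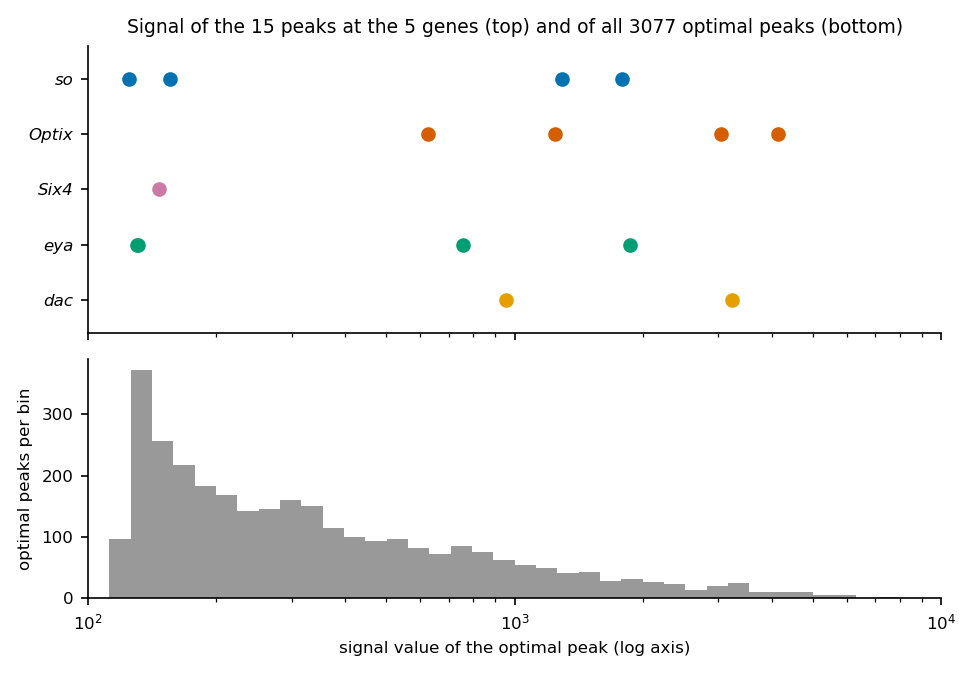
Signal of the 15 peaks by gene (top) and of all 3077 optimal peaks as a histogram (bottom), on the same log axis. The 10 stronger peaks reach from 626 to 4149, the 5 weak ones lie at 125 to 155, and 2 weak peaks of eya overlap at 130.2 and 131.

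Promoters held 7 of the 15 summits, counted within 500 bp of any annotated TSS (46.7%, exact binomial 95% interval 21.3 to 73.4%), against 35.3% of all optimal peaks. Only 4 of these 7, so peak 2, Optix peak 4, eya peak 2 and dac peak 2, stood at the first TSS of the gene itself. The peak eya 4 stood at an internal TSS of eya, and Optix peaks 1 and 3 stood at noncoding RNA genes. The strongest peak of dac lay at 502 bp, just outside the limit. Neighbouring peaks of the same gene were 572 to 10375 bp apart, and the closest pairs lay near the 5′ ends of so and dac.

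At 2 of the 15 summits, eya peak 3 and dac peak 1, a GA run of at least 8 bp was found within 100 bp (13.3%, exact binomial 95% interval 1.66 to 40.5%). Over all optimal peaks the share was 34.4%, which the interval includes. With 250 bp to each side in place of 100, the members' share stayed at 13.3% while that of all peaks was 40.7%, just above the same interval. Counting runs from 6 bp gave 40.0% of the 15 peaks (16.3 to 67.7%), against 58.1% of all. In windows of the same 201 bp placed 1000 bp to each side, 0 of 30 held a run of 8 bp or more around these peaks, against 3.30% around all peaks. Runs of 5 to 7 bp were the longest at 12 of the other 13 summits and eya peak 1 had 3 bp. Among those of rank 307 or better, 1 of 7 peaks held the run, dac peak 1 (14.3%, 0.361 to 57.9%), and 40.7% of all 307 did. The strongest peaks of Optix, eya and so had none.

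The repeat with 1 changed base, GAGCGAG or GAGTGAG, was counted after the summit sequences had been seen. It lay within 100 bp of 11 of the 15 summits (73.3%, exact binomial 95% interval 44.9 to 92.2%), against 48.3% of all optimal peaks. The interval includes that share as well. Among the 3077 strongest regions of replicate 4 alone it did not, at 10 of 13 (76.9%, 46.2 to 95%) against 41.6%. In replicate 2 alone it did, at 10 of 14 (71.4%, 41.9 to 91.6%) against 49.2%. As the repeat was counted after these summits had been seen, the intervals are a description and no test. Among the optimal peaks of rank 307 or better, 6 of 7 held the repeat (85.7%, 42.1 to 99.6%), and 73.9% of all 307 did. In the 1000-bp flanks the repeat was in 1 of 30 windows (3.33%), against 5.75% around all peaks. That 1 window, beside eya peak 1, lay on the summit of eya peak 2. In windows clear of every optimal summit window, a choice made after seeing the data, the counts were 0 of 28 around these peaks and 4.40% around all. Peak 2 of dac had the most matches, 4, and dac peak 1 and eya peak 2 had 3 each. The 4 summits without a match were so peaks 3 and 4, eya peak 1 and, at the other end of the signal range, Optix peak 1, the strongest of the 15. Both summits with a GA run of 8 bp also had a match, so 11 of 15 held either pattern, against 63.6% of all peaks.

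**Figure D4:**
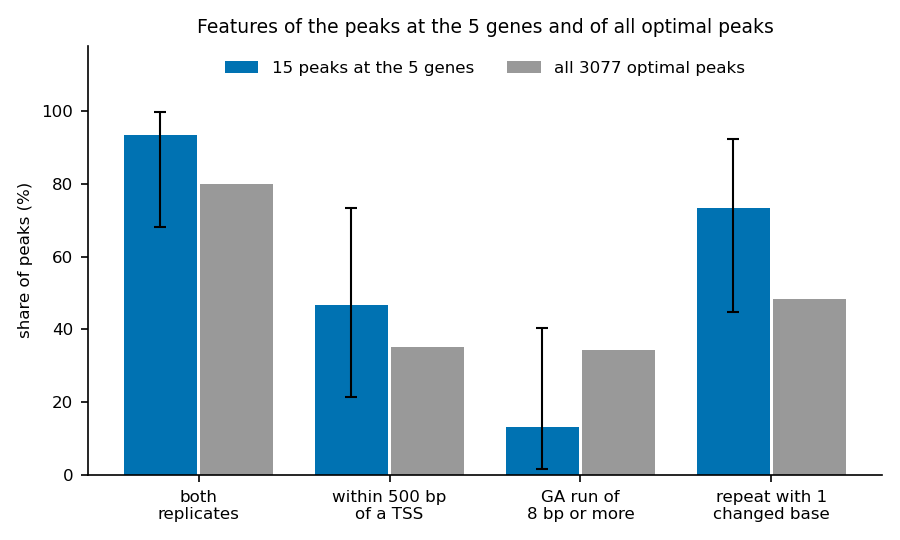
Share of peaks (%) with a counterpart in both replicates, within 500 bp of a TSS, with a GA run of 8 bp or more and with the repeat with 1 changed base within 100 bp of the summit. Blue bars are the 15 peaks with exact binomial 95% intervals, and grey bars are all 3077 optimal peaks. In the optimal set, which is plotted, each interval includes the value of the grey bar beside it.

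The GC content of the 201 bp around the 15 summits ran from 43.8% at eya peak 3 to 66.2% at so peak 4, with a median of 56.2%, against a median of 51.2% over all optimal peaks. The peak with the lowest GC content was also the one whose rank was better in replicate 2 than in replicate 4 by the widest margin, 2310 against 8465. Peak 4 of so, with the highest GC content, was the one missing from replicate 2. Whether base composition has a part in these differences between the replicates was not tested.

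The other genes of the network were read in the same way from a list of 14, itself chosen with earlier results of these data known. Of these, 12 had at least 1 peak within 20 kb and 10 had one within 1 kb of a TSS. Over all protein-coding genes the shares were 57.5% and 10.2%. The Pax6 gene ey had none, while its paralogue toy had 1 peak with a signal of 2169. The Pax genes eyg and toe, which are neighbours, had 2 and 3 peaks with none shared, and strongest signals of 4811 and 1915. Of the partners, hth, a TALE homeobox gene that spans 132008 bp, held 14 peaks, all inside the gene, with a strongest signal of 4380, and exd, whose protein pairs with Hth, had none. The zinc-finger gene tio had 2 peaks, the stronger at 5683, and its relative tsh had 4, the strongest at 1168.

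Genes for signals and for later steps of eye development had weaker peaks. The strongest reached 391 at hh and 447 at dpp, the genes of the Hedgehog and BMP ligands. It reached 221 at the proneural gene ato, 380.4 at the Runx gene lz, and 424 and 394.5 at the neighbours dan and danr, which encode nuclear proteins. The genes so, Optix, eya and dac, at 1785 to 4149, lay above all 6 of these genes and within the range of toy, eyg, toe, hth, tsh and tio. Six4, at 147, lay below every gene of the list that had a peak. The 37 distinct peaks of the list held the GA run of 8 bp in 12 cases (32.4%), against 34.4% of all optimal peaks. The repeat with 1 changed base was found at 21 of the 37, against 48.3% of all optimal peaks.

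**Figure D5:**
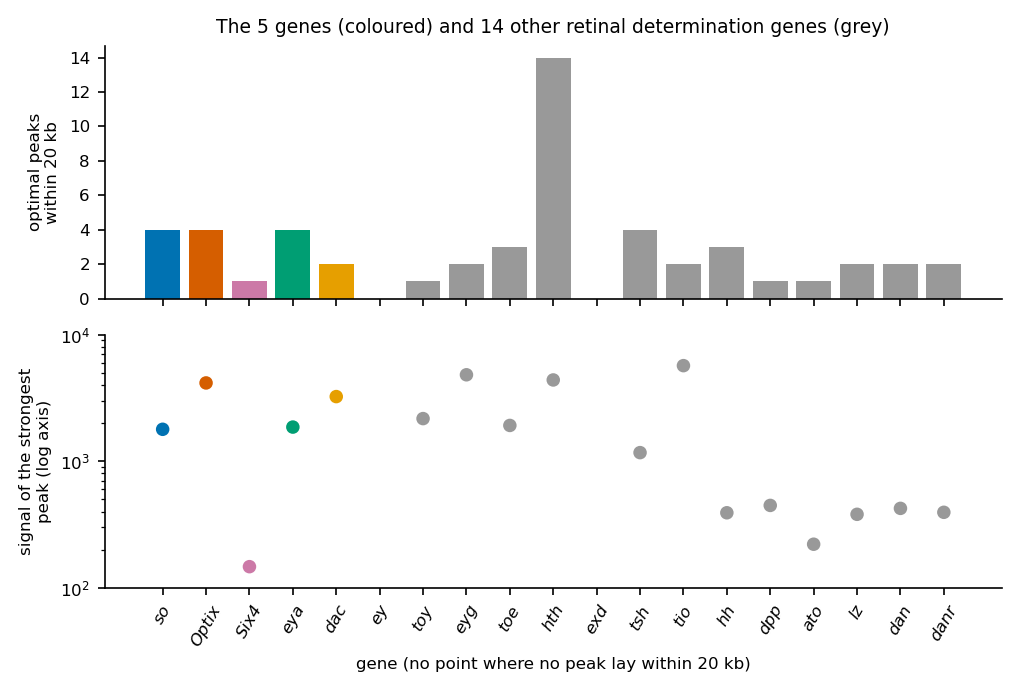
Number of optimal peaks within 20 kb (top) and signal of the strongest of them (bottom, log axis) for so, Optix, Six4, eya and dac (coloured) and 14 other genes of the network (grey). The gene hth has the most peaks, 14, ey and exd have none, and 4 of the 5 coloured genes reach signals over 1000.

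No peak lay close to the limit of 20 kb on either side. The farthest peaks inside it were the Optix peak at 12322 bp and the Six4 peak at 12398 bp. The nearest ones outside were 24306 bp downstream of eya, with a signal of 203 in an intron of CG31637, and 25681 and 26192 bp downstream of Optix, with signals of 147 and 999 at the promoter of lig.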

How the data were processed

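The members and the list of 14 network genes were chosen with earlier results of these data known. The authors deposited, for dm6, a list of regions for each replicate, a pooled list and an optimal set. Each list was made from alignments and 1 control file, as the deposited text files state, and the optimal set by an irreproducible discovery rate step. Aligner, peak caller, settings and threshold: not given in the sources used here. Each region's signal value is the authors' own, deposited with no stated scaling, and was used to describe and rank regions within a list.

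Summits were annotated in dm6 with BDGP annotation 6.54 of Ensembl release 115 and the RefSeq Release 6 sequence, and no dm6 region ended beyond its chromosome. The dm3 lists were not used, since coordinates were not converted. Counts, densities, shares and ranks were computed with Python 3.11.15, numpy 2.4.6, pandas 2.3.3 and scipy 1.17.1, with exact Poisson and exact binomial (Clopper-Pearson) 95% intervals, and the scripts were tested on simulated peaks. A summit within 500 bp of a TSS was called promoter. Motif windows reached 100 bp to each side of a summit. The genes named are the 5 members, the gene with the nearest TSS and the host gene of each of their peaks, and the 14 network genes. With 1 group, no genes were named for a like pattern. The genes at peaks outside the windows (CG31637 and lig here, and those in the closing section) were chosen for naming with their values known.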

Additional observations from a re-analysis of the deposited data

How the results depend on the processing

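The number of peaks at the 5 genes depended on the distance allowed. It was 4 inside the genes alone and 32 within 50 kb, against 15 within 20 kb, and the density within 5 kb was 100 per Mb, against 55.6. With the 3077 strongest regions of 1 replicate alone, the count was 13 to 14 and the density 48.2 to 51.9 per Mb. In the same 2 settings the promoter share was 53.8 to 57.1%, the share with a GA run 7.69 to 14.3% and, added after seeing the data, the share with the repeat with 1 changed base 71.4 to 76.9%. The other alternatives, the strongest 1538 peaks, matching by 100 bp, 500 bp or overlap, and other TSS distances, run lengths and windows, moved the counts by at most 1.5 times or left the members' shares within their own intervals. The share over all peaks moved too, and for a GA run within 250 bp (40.7%) and for the repeat in replicate 4 alone (41.6%) it fell outside the members' interval. Neither is a test, and the repeat was counted after the summit sequences had been seen. Counts per gene moved by over 1.5 times in 16 of 40 alternatives. Among them, eya had 2 peaks without replicate 2, and Six4 had 0 without replicate 4. Of 15 ranks of strongest peaks 2 moved as far, both without replicate 4: Six4 to 11882 and dac to 29. The causes were not tested. No paired analysis was possible because the replicates form 1 group.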

Other observations

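Beyond the windows, dac had more peaks around it than the other genes. Between 20 and 60 kb from the gene, 11 optimal peaks lay around dac, against 5 at Optix, 3 at so and 1 each at Six4 and eya. Upstream of dac there were 9, at 34868 to 59853 bp, and 5 of them lay in CG5953, the strongest with signals of 742 and 690.4. The strongest of the 11, with a signal of 1638 (rank 210), lay on the other side, 43641 bp downstream in an intron of CG5888 and 16914 bp from its TSS. It was present in both replicates and held a 13-bp GA run and 3 matches to the repeat with 1 changed base. Some of the other peaks around dac were not present in both replicates. These were the ones at 43438 bp downstream and at 49138, 54858 and 59853 bp upstream. The peak at Six4 was not present in both either, whereas all those at Optix, so and eya were. The count of peaks at 20 to 60 kb over all protein-coding genes is not given here. Which gene any of these peaks serves cannot be read from peak lists.

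The replicate lists also held regions of the windows that the optimal set lacks. In replicate 4 none of these was among the 3077 strongest. In replicate 2 there were 2: one 18483 bp from Optix in an intron of CG12769, with a signal of 61 (rank 2421), and one 15216 bp from eya and 97 bp from a TSS of Trmt6, with a signal of 67.7 (rank 2223).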
